A study of Homo sapiens with 4 samples.

Results

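The comparison described here set SCP2 breast cancer cells labelled as overexpressing DLC1 against vector control cells, both treated with TGF-beta. It rests on 2 of the 4 arrays of the series, labelled DLC1_TGFb and Vector_TGFb, and every difference below is the log2 intensity of the DLC1_TGFb array minus that of the Vector_TGFb array. The other 2 arrays, labelled DLC1 and Vector, hold the same 2 kinds of cells without TGF-beta and are given beside it. SCP2 was derived from the breast cancer line MDA-MB-231 and is known to colonise bone, and the study's title concerns bone metastasis. The sources used here do not say whether the cells were a clone or a pool, and they give neither the dose nor the time of TGF-beta. With 1 array a group there is no replicate, no test was possible and no p-value is given. A gene was represented by its brightest probe set, and of 19775 named genes 13137 were bright enough on at least 1 array to be kept. Intensities are in arbitrary units on a linear scale.

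DLC1 is a GTPase-activating protein and tumour suppressor that is known to act on actin filaments, cell adhesion and movement. TGF-beta is a cytokine stored in bone matrix and freed when bone is resorbed. It signals through receptor kinases and SMAD transcription factors, and in breast cancer cells it is known to raise secreted factors that act on osteoclasts and osteoblasts.

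The DLC1 transcript itself did not settle which array held the overexpressing cells. Probe set 210762_s_at read 3.64 in DLC1_TGFb and 2.51 in Vector_TGFb, a difference of 0.54. Probe set 224822_at ran the other way, with 1.69 in DLC1_TGFb and 2.41 in Vector_TGFb, a difference of -0.51. The dim 220512_at read 0.19 and 0.41 in the same order, and the remaining DLC1 sets, 220511_s_at and 242631_x_at, stayed at or below 0.14 on both arrays. Without TGF-beta, 210762_s_at read 3.38 in DLC1 and 1.77 in Vector, a bigger difference of 0.93. Probe set 224822_at again ran the other way, with 1.44 in DLC1 and 1.79 in Vector, a difference of -0.31. The arrays are therefore called by their labels throughout, and every direction below holds for the labels. Of the close relatives of DLC1, STARD13, also a GTPase-activating protein, read 2.83 in DLC1_TGFb and 6.34 in Vector_TGFb, a difference of -1.16, or -0.62 with a gene taken as the mean of all its probe sets, dim ones included. STARD8 read 1.34 in DLC1_TGFb and 1.3 in Vector_TGFb.

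Across the kept genes, most differences were small. The median difference was -0.02, the 5th and 95th percentiles were -0.66 and 0.63, and 87.4% of genes lay within 1.5-fold. At least 2-fold, the size used as a call here, 192 genes were higher (1.46% of those kept) and 216 lower (1.64%) in DLC1_TGFb than in Vector_TGFb. Only 11 of the higher genes and 12 of the lower ones reached 4-fold. For 45 of the higher genes and 38 of the lower ones, the smaller of the 2 values lay under the filter of 0.38, where rounding to 2 decimals makes a ratio coarse. The counts of the gene groups below are to be read against 1.46% and 1.64%, and their signs against 46.8% of all genes above 0 and 52% below 0. All these lists and their members were chosen with earlier results of these data known. Their counts therefore describe the lists and are not independent support.

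**Figure D1:**
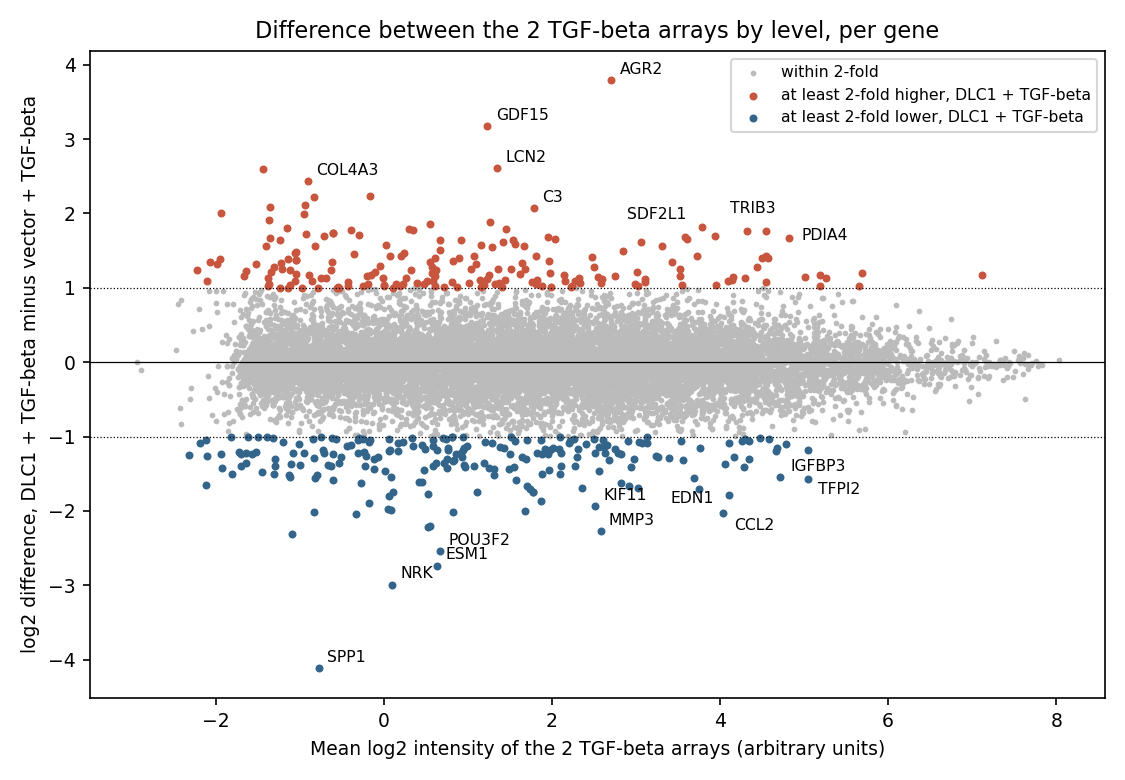
Each point is a kept gene, with the mean log2 intensity of the 2 TGF-beta arrays on the horizontal axis and the log2 difference, DLC1_TGFb minus Vector_TGFb, on the vertical axis. Red points are the 192 genes at least 2-fold higher and blue points the 216 at least 2-fold lower in DLC1_TGFb, and dotted lines mark 2-fold. AGR2 at 3.79 and SPP1 at -4.12 are the ends of the range.

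Genes of the endoplasmic reticulum's protein folding machinery were higher as a group in DLC1_TGFb. This machinery folds secreted and membrane proteins, and the unfolded protein response raises its chaperones when folding falls behind. Of 34 members, 12 were at least 2-fold higher and 0 lower, 33 lay above 0, and the median was 0.76 against -0.02 for all genes. SDF2L1, a chaperone complex component, read 25.83 in DLC1_TGFb and 7.32 in Vector_TGFb, a difference of 1.82. PDIA4, a protein disulfide isomerase, read 50.29 in DLC1_TGFb and 15.76 in Vector_TGFb, a difference of 1.67, and its other probe set, 208658_at, gave 1.79. CRELD2, a resident protein induced by folding stress, read 21.72 in DLC1_TGFb and 6.86 in Vector_TGFb, a difference of 1.66. Without TGF-beta the arrays of both labels read much as they did with it for these genes, for example 26.99 in DLC1 and 6.69 in Vector for SDF2L1. DNAJB9, a co-chaperone, differed by 1.43, with 1.47 and 1.85 in its other sets. HYOU1, a large chaperone of the lumen, also differed by 1.43. HSP90B1, the HSP90 of this compartment, differed by 1.40 in 216449_x_at and by 1.24 in 216450_x_at, sets of a kind whose probes can match related transcripts. The folding oxidase gene ERO1B differed by 1.32 and MANF, a stress-induced secreted protein, by 1.19. HSPA5, the main chaperone of the lumen, which was picked after its values were seen, read 207.73 in DLC1_TGFb and 92.13 in Vector_TGFb. XBP1, a transcription factor of the response, differed by 0.77, under 2-fold. The single member below 0 was CREB3L2, at -0.08, also named after its value was seen.

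The amino acid response, which runs through the transcription factor ATF4 and raises amino acid transporters, synthesis enzymes and stress regulators, was higher as a group too. Of 33 kept members, 12 were at least 2-fold higher and 0 lower, 32 lay above 0, and the median was 0.81. TRIB3, a stress-induced pseudokinase, read 36.74 in DLC1_TGFb and 10.85 in Vector_TGFb, a difference of 1.76. DDIT4, an inhibitor of mTOR signalling, read 43.1 in DLC1_TGFb and 12.71 in Vector_TGFb, also a difference of 1.76. NUPR1, a stress-induced nuclear protein, read 27.51 in DLC1_TGFb and 8.5 in Vector_TGFb, a difference of 1.69. The lipoprotein receptor gene VLDLR was the highest member at 1.89. Amino acid handling genes followed, with the neutral amino acid transporter SLC1A4 at 1.59, the cysteine synthesis enzyme CTH at 1.40 and the transporter subunit SLC3A2 at 1.35. SESN2, a sensor of leucine, differed by 1.19. For SLC1A4 the other 4 sets ranged from 0.61 to 1.75. ATF4 itself differed by 0.46 and ATF3 by 0.47, and these 2 were named after their values were seen.

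Neighbouring stress groups showed this pattern weakly or not at all. Of 17 transfer RNA synthetases, some of which are ATF4 targets, 0 passed 2-fold, and 10 lay above 0 and 7 below it. WARS1 was highest at 0.88, FARSB lowest at -0.57, and the median was 0.10. Of 11 heat shock genes, the chaperones of the cytosol and mitochondria, 0 passed 2-fold and 8 lay below 0, with a median of -0.13. HSPE1, a mitochondrial co-chaperone, was the lowest at -0.49. Lysosome and autophagy genes lay above 0 for 20 of 26 members with a median of 0.24 and 0 past 2-fold, led by MAP1LC3B, a protein of autophagosome membranes, at 0.92. Of 23 p53 targets, 2 passed 2-fold higher, GDF15 and SESN2, with a median of 0.15. Of 26 oxidative stress genes, the transporter gene ABCC3 alone passed 2-fold, at 1.64, while its set 209641_s_at gave 1.12 and 3 dimmer sets lay between 0 and 0.21, so that the mean of its sets was 0.60.

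Promoter sequences of these 2 higher groups are shown because each is known for a short element. The sequences are from RefSeq on GRCh38.p14, in a window from 250 bases before to 50 after the start, and the table matched 30 members of the endoplasmic reticulum list and 27 of the ATF4 list. The endoplasmic reticulum stress element was searched as CCAAT and CCACG with 9 bases between them and the amino acid response element as TGATGNAA, each on both strands. The capitals mark the match, and each stretch ends before the start of its gene.
CRELD2: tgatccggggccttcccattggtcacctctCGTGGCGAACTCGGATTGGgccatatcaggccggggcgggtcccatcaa
HSP90B1: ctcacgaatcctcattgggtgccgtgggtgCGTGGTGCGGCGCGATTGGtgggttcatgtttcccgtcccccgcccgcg
ERO1B: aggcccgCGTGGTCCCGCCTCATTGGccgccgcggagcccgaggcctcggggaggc
ASNS: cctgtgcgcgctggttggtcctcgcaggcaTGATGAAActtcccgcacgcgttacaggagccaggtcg
CHAC1: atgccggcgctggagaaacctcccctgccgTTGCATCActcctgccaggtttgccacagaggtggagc
These lie at chr22:49918524-49918602 on the plus strand for CRELD2, chr12:103930291-103930369 on the plus strand for HSP90B1 and chr1:236282153-236282208 on the minus strand for ERO1B. For ASNS the stretch is chr7:97872439-97872506 on the minus strand and for CHAC1 chr15:40953232-40953299 on the plus strand. The first 3 matches and that of CHAC1 read on the strand opposite to the gene. HSP90B1 has a further match in its window that is not shown.

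The endoplasmic reticulum stress element was found in 8 of the 30 members (26.7%), against 0.0916% of the 27305 promoters in the table. Of the 10596 kept genes with a promoter there, 0.142% had a match, with a median difference of 0.61. These 8 members had a median difference of 0.97, and the 22 without a match had 0.80. Among the 8, CRELD2, HSP90B1, ERO1B and HSPA5 passed 2-fold higher, and XBP1, CALR, PDIA6 and CANX lay between 0.48 and 0.77. The amino acid response element was found in 9 of 27 members of the ATF4 list (33.3%), against 4.46% of all promoters. Of kept genes 2.8% had a match, with a median difference of 0.0. Members with a match had a median of 0.82 and those without 0.89. ASNS, asparagine synthetase, read 47.97 in DLC1_TGFb and 21.72 in Vector_TGFb, a difference of 1.14, and CHAC1, an enzyme that degrades glutathione, read 2.12 and 1.2 in the same order, a difference of 0.82. Both genes were chosen for their promoters after their values were seen. A match describes the letters in the window and is not a measured site.

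Some secretory epithelial genes were much higher in DLC1_TGFb. AGR2, a disulfide isomerase of secretory cells with the biggest positive difference of all kept genes, read 24.24 in DLC1_TGFb and 1.75 in Vector_TGFb, a difference of 3.79, with 2.10 in its dimmer set 228969_at. LCN2, the iron-carrier protein lipocalin, read 6.28 in DLC1_TGFb and 1.03 in Vector_TGFb, a difference of 2.61. Without TGF-beta the DLC1 array was again the higher one for both, with 39.16 against 2.94 for AGR2 and 8.21 against 1.18 for LCN2. The list of 14 secretory epithelial and mucosal defence genes had 4 members past 2-fold higher and 0 lower, the others being the tetraspanin TSPAN8 at 1.42 and the calcium-binding protein S100P at 1.17. The remaining 10 members lay within 2-fold, among them the transcription factor genes SPDEF at 0.65 and FOXA2 at 0.62. The list's median was 0.34, and 0.05 when the members under the filter were put back.

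Complement genes, some of whose products mark and lyse cells in innate immunity, lay above 0 for 9 of 11 members, with a median of 0.63 and 2 past 2-fold. C3, the central component, read 7.04 in DLC1_TGFb and 1.68 in Vector_TGFb, a difference of 2.07. Factor B, CFB, read 2.56 in DLC1_TGFb and 1.21 in Vector_TGFb, a difference of 1.08, or 0.46 as the mean of its sets, which left 1 of 9 members past 2-fold. The protease genes C1S and CFI differed by 0.97 and 0.70, and C5 by 0.94, all under 2-fold, and the low value of CFI, 0.32, was under the filter. Of 30 interferon response genes 1 passed 2-fold, IFI27 at 1.20, and the median was 0.06. Antigen presentation genes had 0 of 19 past 2-fold and a median of 0.07.

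**Figure D2:**
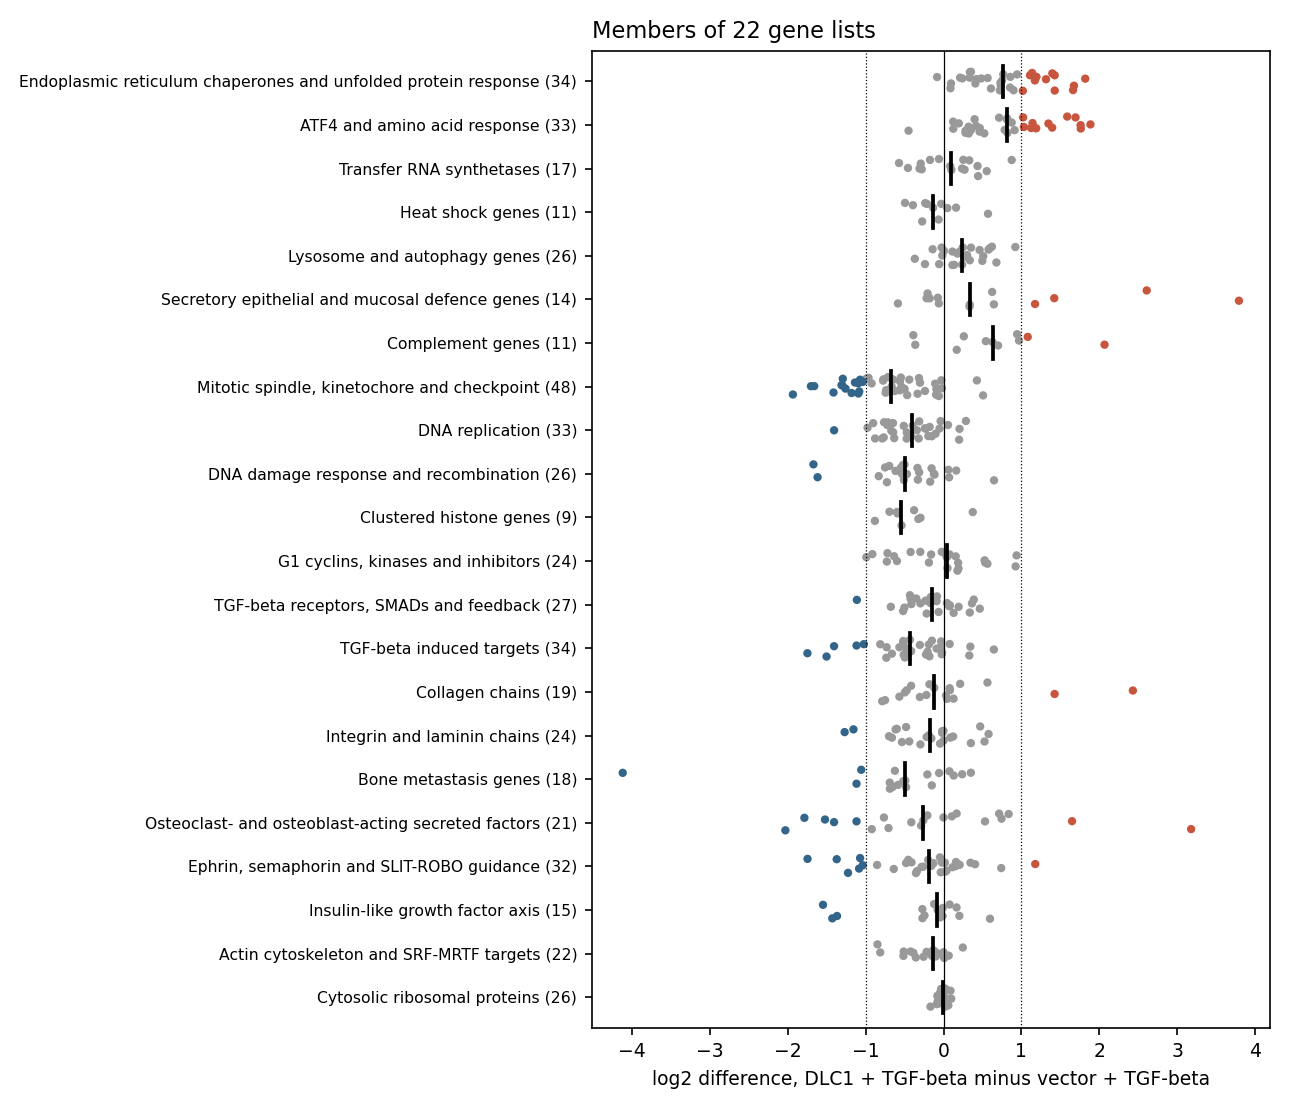
Each point is a kept member of 1 of 22 gene lists, placed by its log2 difference, DLC1_TGFb minus Vector_TGFb, with the number of members in parentheses and a black bar at the list's median. Red and blue points are at least 2-fold higher and lower in DLC1_TGFb. The endoplasmic reticulum and ATF4 lists lie almost wholly to the right of 0 and the mitotic list to the left, and ribosomal protein genes lie close to 0.

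Genes of mitosis were lower as a group. They encode the motors, kinetochore proteins and checkpoint kinases that build the spindle and separate chromosomes. Of 48 members, 15 were at least 2-fold lower and 0 higher, 46 lay below 0, and the median was -0.67. KIF11, a motor that pushes spindle poles apart, read 2.92 in DLC1_TGFb and 11.15 in Vector_TGFb, a difference of -1.93. DLGAP5, a spindle microtubule protein, read 7.45 in DLC1_TGFb and 24.23 in Vector_TGFb, a difference of -1.70. CENPE, a kinetochore motor, read 4.24 in DLC1_TGFb and 13.39 in Vector_TGFb, a difference of -1.66. The condensin gene NCAPG followed at -1.41, with -1.63 in its other set, then the checkpoint kinase genes BUB1 at -1.31 and BUB1B at -1.26, the topoisomerase gene TOP2A at -1.30 and the kinetochore gene NDC80 at -1.29. As the mean of their sets BUB1 gave -0.41 and TOP2A -0.97, under 2-fold. For KIF11 both DLC1 arrays read below both Vector arrays, with 2.99 in DLC1 and 14.54 in Vector without TGF-beta. In RNA from a whole culture, fewer cells in mitosis and less of these transcripts per cell cannot be told apart. The 2 members above 0 were the proliferation marker MKI67 at 0.51 and the centromere histone CENPA at 0.43, both named after their values were seen.

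Genes of DNA replication and repair lay below 0 with few past 2-fold. Of 33 replication genes, 29 lay below 0 with a median of -0.41, and only POLE2, a subunit of DNA polymerase epsilon, passed 2-fold, at 4.73 in DLC1_TGFb and 12.52 in Vector_TGFb, a difference of -1.40. RRM2, which makes deoxynucleotides, differed by -0.97, and UHRF1, which maintains DNA methylation, by -0.90. Of 26 DNA damage genes, 22 lay below 0 with a median of -0.50 and 2 passed 2-fold. The helicase gene BRIP1 read 1.82 in DLC1_TGFb and 5.79 in Vector_TGFb, a difference of -1.67, with -1.55 in its other set. CLSPN, a checkpoint adaptor, read 0.76 in DLC1_TGFb and 2.33 in Vector_TGFb, a difference of -1.62, or -0.87 as the mean of its sets. The checkpoint kinase CHEK2 ran against the list at 0.65. Clustered histone genes, made in S phase, lay below 0 for 8 of 9 members with a median of -0.54 and 0 past 2-fold. Regulators of the G1 phase showed no common direction, with 13 of 24 above 0 and a median of 0.04. Among them the inhibitor CDKN1C stood at 0.94 and cyclin D2, CCND2, at 0.93, while RBL1, a relative of the retinoblastoma protein, stood at -0.99 and cyclin E1, CCNE1, at -0.91.

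Promoters of mitotic genes are shown because many of them carry the cell cycle homology region, through which their transcription is held down outside late cell cycle. It was searched as TTTGAA on both strands in the same window, and the capitals mark it.
KIF11: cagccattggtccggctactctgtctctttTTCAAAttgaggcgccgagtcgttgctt
DLGAP5: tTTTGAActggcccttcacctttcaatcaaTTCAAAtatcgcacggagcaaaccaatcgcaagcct
NCAPG: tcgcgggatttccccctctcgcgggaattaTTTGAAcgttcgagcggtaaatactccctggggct
The stretches lie at chr10:92593072-92593129 on the plus strand for KIF11, chr14:55191659-55191724 on the minus strand for DLGAP5 and chr4:17810914-17810978 on the plus strand for NCAPG. A match was found in 33 of the 42 mitotic genes in the table (78.6%), against 18.2% of all promoters, a motif short enough to be common. Of kept genes 13.9% had a match, with a median difference of -0.06. The 33 had a median difference of -0.71, with 11 at least 2-fold lower, and the 9 without a match had a median of -0.92.

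Gene length and RNA quality measures also differed between the 2 arrays. The longest 10% of the kept genes had a median of -0.09, with 3.73% at least 2-fold lower and 1.6% higher, and the shortest 10% had a median of 0 with 0.76% lower. Measured from the median of genes in the same 10% by length, members had a median of -0.65 in the mitotic list, -0.46 in the DNA damage list, 0.78 in the endoplasmic reticulum list and 0.81 in the ATF4 list. For beta-actin the control probe sets gave -0.29 at the 5' end and -0.10 at the 3' end, those of GAPDH gave -0.13 and -0.11, and those of 18S ribosomal RNA gave 0.35 and 0.07. Their part in the gene differences was not tested. All 15 markers of the parental line reached the filter on both arrays, with sums of 962.34 in DLC1_TGFb and 1044.18 in Vector_TGFb. Luminal markers reached it for 8 of 14 on each array, with sums of 38.6 and 29.03 in the same order. Leukocyte markers reached it for 5 of 12 in DLC1_TGFb and 6 of 12 in Vector_TGFb, with sums of 4.21 and 4.63, and endothelial and stromal markers for 8 of 15 on each, with sums of 8.43 and 8.66.

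Targets that TGF-beta is known to induce were lower in DLC1_TGFb as a group, although few passed 2-fold. Of 34 members, 30 lay below 0, 5 were at least 2-fold lower and 0 higher, and the median was -0.43. As in the other lists, the members were chosen with earlier results of these data known. These counts therefore describe the list and are not independent support. ADAM19, a membrane metalloprotease, read 1.18 in DLC1_TGFb and 3.96 in Vector_TGFb, a difference of -1.75, although its set 221128_at gave 0.07. BPGM, an enzyme of a side path of glycolysis, read 2.54 in DLC1_TGFb and 7.19 in Vector_TGFb, a difference of -1.50. SNAI2, a repressor of epithelial genes, read 15.61 in DLC1_TGFb and 31.72 in Vector_TGFb, a difference of -1.02. The others past 2-fold were the Wnt ligand WNT5A at -1.40 and the cytokine IL11 at -1.12. In the pair without TGF-beta, SNAI2 differed by -1.19 and IL11 by -1.03, about as much as with it. ADAM19 there differed by -1.77, with a DLC1 value of 0.15 under the filter, and BPGM by less, -0.68. With a gene taken as the mean of its sets, 3 of 31 were at least 2-fold lower, with ADAM19 at -0.84 and IL11 at -0.94 under it, and the median was -0.35. Centring the arrays on the median of all kept genes put SNAI2 at -0.99. Other known targets stayed under 2-fold, with collagen IV, COL4A1, at -0.57, connective tissue growth factor, CCN2, at -0.52 and transgelin, TAGLN, at -0.81. PMEPA1, a feedback inhibitor, read 80.96 in DLC1_TGFb and 89.76 in Vector_TGFb and so differed by only -0.15, and the scaffold gene NEDD9 differed by -0.02; both were named after their values were seen. The platelet-derived growth factor gene PDGFB was the highest member at 0.65, also named after its value was seen.

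The receptors, SMADs and feedback genes of the pathway were close to level, with 17 of 27 below 0, a median of -0.15 and 1 past 2-fold. That gene was the BMP receptor BMPR1B, which read 0.93 in DLC1_TGFb and 2.01 in Vector_TGFb, a difference of -1.11, and -1.12 in its other kept set, but -0.90 as the mean of all its sets. The receptor BMPR2 differed by -0.68, the feedback inhibitors SKIL and SMAD7 by -0.52 and -0.43, and TGIF1, a corepressor, by 0.47. Ligands of the TGF-beta family went both ways, with 3 higher and 1 lower of 24. GDF15, a stress-induced distant member, read 7.06 in DLC1_TGFb and 0.78 in Vector_TGFb, a difference of 3.18, or 1.20 as the mean of its sets. The activin subunits INHBB and INHBE differed by 1.99 and 1.32, both against values under the filter, so that only 1 of 19 ligands was higher where both values had to reach it, while INHBA, another activin subunit, differed by -0.88. BMP2 read 1.46 in DLC1_TGFb and 4.19 in Vector_TGFb, a difference of -1.52.

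Collagen IV, the network collagen of basement membranes, had chains above and below 0 by the brightest set of each gene. COL4A3 read 1.24 in DLC1_TGFb and 0.23 in Vector_TGFb, a difference of 2.43 against a value under the filter. COL4A4, whose gene shares a promoter region with COL4A3, read 1.72 in DLC1_TGFb and 0.64 in Vector_TGFb, a difference of 1.43. As the mean of their sets COL4A3 gave 0.49, too dim to be kept, and COL4A4 gave 0.82, and 0 of 14 collagen genes were then past 2-fold. The chains of the common network lay below 0, with COL4A1 at -0.57 and COL4A2 at -0.50. These and the other collagen genes made up 17 within 2-fold, among them COL12A1 at -0.75 and COL27A1 at -0.79, and the list's median was -0.12. Integrin and laminin chains had 2 of 24 at least 2-fold lower and 0 higher, namely the laminin LAMB1 at -1.27 and the fibronectin receptor ITGA5 at -1.16. The crosslinking enzyme LOXL1 read 1.03 in DLC1_TGFb and 2.34 in Vector_TGFb, a difference of -1.18.

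Matrix-degrading proteases and their inhibitors had 3 of 32 at least 2-fold lower and 0 higher, with 21 below 0 and a median of -0.23. MMP3, stromelysin, read 2.72 in DLC1_TGFb and 13.1 in Vector_TGFb, a difference of -2.27. ADAMTS1, a secreted metalloprotease, read 14.14 in DLC1_TGFb and 29.4 in Vector_TGFb, a difference of -1.06, or -0.99 as the mean of its sets. ADAM19 was the third. Urokinase, PLAU, read 38.82 in DLC1_TGFb and 72.43 in Vector_TGFb, a difference of -0.90, and -1.22 in its other set. The inhibitor TIMP3 differed by -0.78 and TIMP4 by 0.80.

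Genes tied to bone metastasis lay mostly below 0, while secreted factors acting on bone cells went both ways. SPP1, osteopontin, read 0.14 in DLC1_TGFb and 2.43 in Vector_TGFb, a difference of -4.12 whose low value lies at the lower quartile of the array. As the mean of its sets SPP1 gave -2.17. IL11, which promotes osteoclast formation, read 4.28 in DLC1_TGFb and 9.28 in Vector_TGFb, a difference of -1.12, and -0.77 in its other set. The list of 18 bone metastasis genes had 14 members below 0, 3 of them at least 2-fold lower, and a median of -0.50, and 1 of 14 was at least 2-fold lower with a gene as the mean of its sets. The third lower member was ADAMTS1 at -1.06. The remaining members were under 2-fold, with the chemokine receptor CXCR4 at -0.69, the BMP inhibitor NOG at -0.65 and the Notch ligand JAG1 at -0.62. ITGB3, an integrin chain, was the highest at 0.35, named after its value was seen.

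Among 21 osteoclast- and osteoblast-acting factors, 5 were at least 2-fold lower and 2 higher, 12 lay below 0 and 8 above it, and the median was -0.26. CCL2, a monocyte chemokine, read 8.14 in DLC1_TGFb and 33.23 in Vector_TGFb, a difference of -2.03. EDN1, endothelin, which stimulates osteoblasts, read 9.28 in DLC1_TGFb and 31.99 in Vector_TGFb, a difference of -1.79, with -1.83 and -1.08 in its other sets. CSF1, the macrophage growth factor, went the other way at 7.28 in DLC1_TGFb and 2.32 in Vector_TGFb, a difference of 1.65, although its other kept sets gave 0.77 and 0.18 and the mean of its sets 0.73. GDF15 was the other higher member. BMP2 at -1.52 and IL11 at -1.12, described above, were also among the 5 lower members. Members under 2-fold included the epidermal growth factor family member HBEGF at -0.92 and interleukins IL6 and IL1B at -0.76 and -0.71. Some genes stand in more than 1 of these lists, so the lists are not independent.

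**Figure D3:**
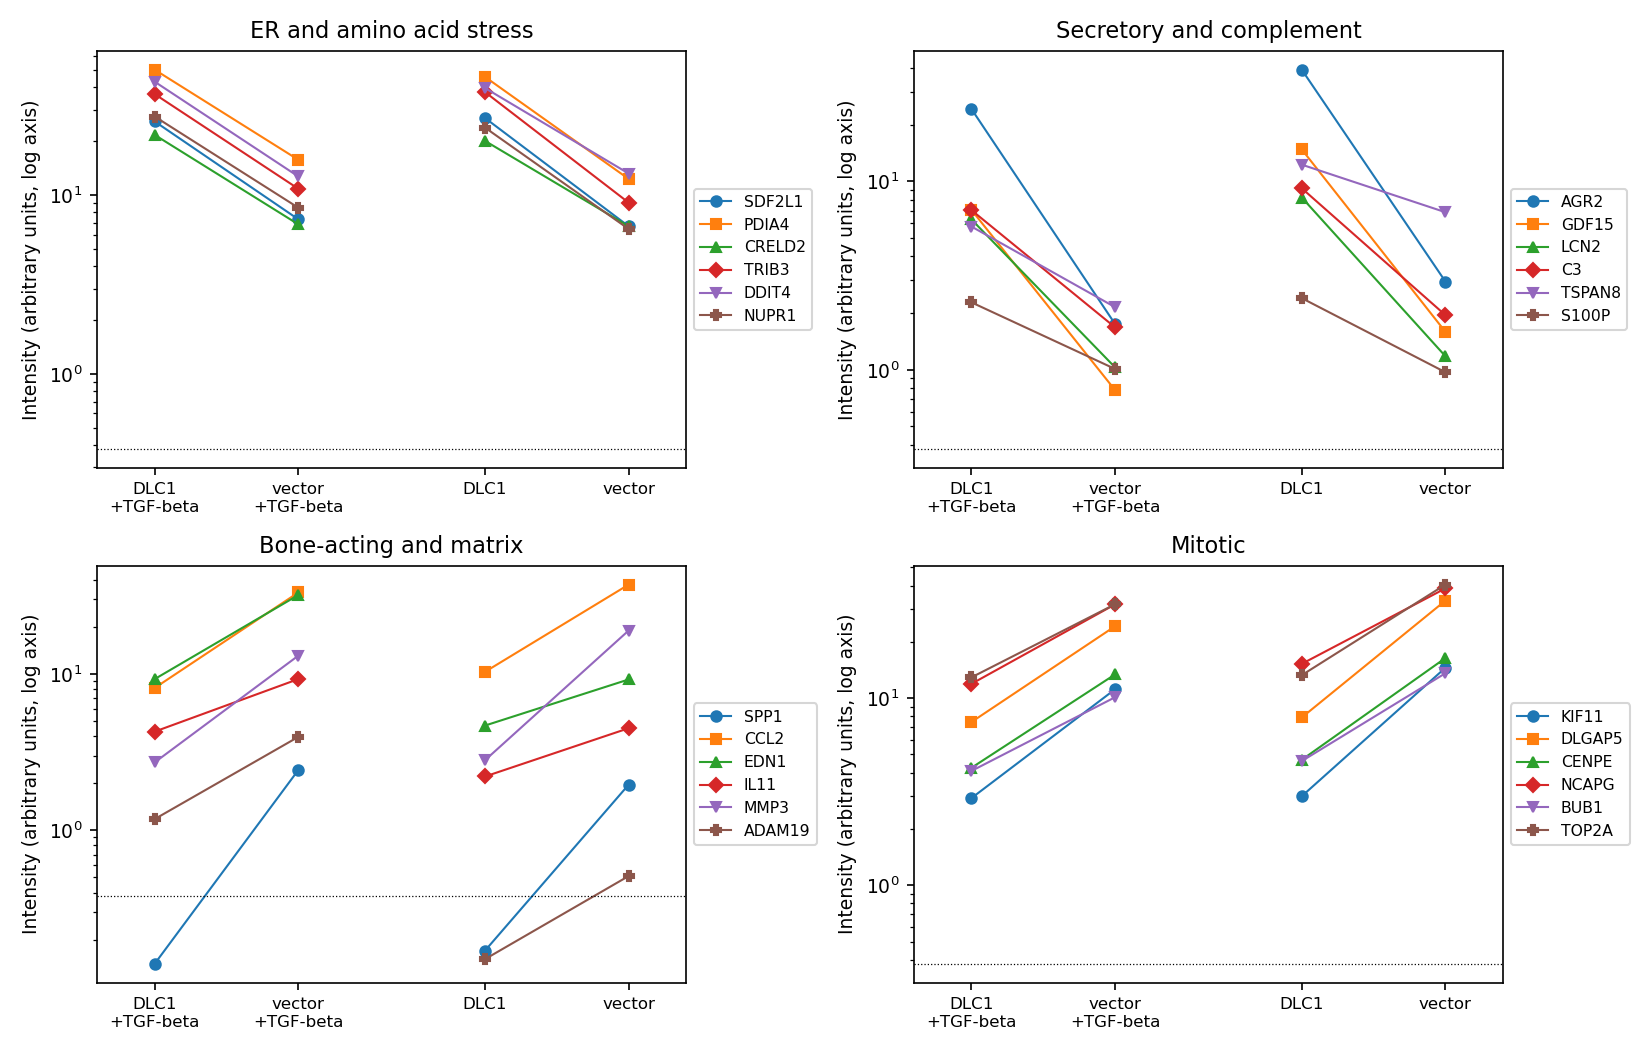
Intensities on the 4 arrays, on a log axis, for 6 genes in each of 4 panels, with lines joining the DLC1 array to the Vector array within each TGF-beta state and a dotted line at the filter of 0.38. Endoplasmic reticulum and amino acid stress genes and secretory genes read higher in DLC1 arrays in both states, and bone-acting, matrix and mitotic genes read lower.

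Guidance molecules, which steer axons and vessels, had 6 of 32 members at least 2-fold lower and 1 higher, with a median of -0.18. NRP2, a semaphorin and VEGF co-receptor, read 1.87 in DLC1_TGFb and 6.27 in Vector_TGFb, a difference of -1.75. Its other 7 kept sets ranged from -0.96 to -2.40. The ephrin receptors EPHA4 and EPHA7 differed by -1.23 and -1.07, the SLIT receptor ROBO2 by -1.37, SLIT2 itself by -1.04 and the semaphorin SEMA7A by -1.08. Netrin-4, NTN4, ran the other way at 6.65 in DLC1_TGFb and 2.94 in Vector_TGFb, a difference of 1.18. The values of ROBO2 and EPHA7 in DLC1_TGFb, 0.29 and 0.3, were under the filter, and 4 of 29 members were lower where both values had to reach it. With a gene taken as the mean of its sets 3 of 26 were lower. EPHA4 then gave -0.82 and SEMA7A -0.54, and ROBO2 at -0.71 and EPHA7 at -0.46 were too dim to be kept.

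The insulin-like growth factor axis had 3 of 15 members at least 2-fold lower and 0 higher. IGFBP3, a binding protein, read 15.36 in DLC1_TGFb and 44.87 in Vector_TGFb, a difference of -1.55, with -1.79 in its other set. PAPPA, a protease that cleaves binding proteins, differed by -1.43, or -0.71 as the mean of its sets, and its inhibitor STC1 by -1.37. The receptor IGF1R, at -0.12, was named after its value was seen. Among growth factors of other families, the ErbB ligand NRG1 read 7.55 in DLC1_TGFb and 22.12 in Vector_TGFb, a difference of -1.55, although its 4 dimmer sets lay between -0.49 and 0.08 and the mean of all its sets was -0.44. ESM1, a proteoglycan of activated endothelium, read 0.6 in DLC1_TGFb and 4.0 in Vector_TGFb, a difference of -2.74. VEGFA, the main angiogenic factor, read 24.25 in DLC1_TGFb and 14.79 in Vector_TGFb, a difference of 0.71.

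Mesenchymal markers had 3 of 13 members at least 2-fold lower and 0 higher, with a median of -0.16. TCF4, a transcription factor that represses E-cadherin, read 4.04 in DLC1_TGFb and 12.43 in Vector_TGFb, a difference of -1.62. Its other 6 kept sets ranged from -1.11 to -1.71. The fibroblast protease gene FAP differed by -1.0 with 0.25 in DLC1_TGFb, under the filter, and SNAI2 was the other. Both sat at the threshold, and centring the arrays on all kept genes or on the housekeeping list left 1 of 13 at least 2-fold lower. The bright markers of the class, vimentin, VIM, at -0.16 and S100A4 at 0.26, were close to level. Among 22 epithelial junction and keratin genes, 2 were higher, the tight junction gene CLDN1 at 1.34 and plakoglobin, JUP, at 1.11, and CLDN4, also of tight junctions, was the lowest at -0.93. Their median was 0.03. Among 17 cadherins, DCHS1 at 2.22 and PCDH7 at 1.58 were higher, and PCDH9 at -1.39 and CDH19 at -1.22 lower. The value of DCHS1 in Vector_TGFb, 0.26, was under the filter. With a gene taken as the mean of its sets, 1 of 15 was higher, DCHS1 at 1.03, and 0 lower. PCDH7 then gave 0.32 and CDH19 came just under 2-fold, and PCDH9 at -0.62 was too dim to be kept.

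Genes of the actin cytoskeleton and of cell adhesion were mostly within 2-fold. Of 22 actin cytoskeleton and SRF-MRTF targets 0 passed, 16 lay below 0 and the median was -0.14, with the myosin MYH10 at -0.85, TAGLN at -0.81 and tropomyosin, TPM1, at -0.51. The CArG box, the site SRF binds, was present in 7 of 19 of their promoters (36.8%), against 1.6% of all promoters, and those 7 genes had a median of -0.08. Of 22 YAP and TAZ targets, 0 passed 2-fold and the median was -0.18, with the forkhead gene FOXF2 lowest at -0.82 and ANKRD1 highest at 0.63. Focal adhesion genes had 1 of 28 past 2-fold, the kindlin FERMT1, which read 16.77 in DLC1_TGFb and 38.34 in Vector_TGFb, a difference of -1.19. Its other kept sets gave -1.63 and -1.38, and the mean of all its sets was -1.03. Vinculin, VCL, differed by -0.72.

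Among transcription factor genes, those of the SOX, POU and homeobox list had 3 of 18 at least 2-fold lower and 0 higher. POU3F2, a neural transcription factor, read 0.66 in DLC1_TGFb and 3.83 in Vector_TGFb, a difference of -2.54, with -0.95 in its other set. SOX5 read 0.67 in DLC1_TGFb and 3.11 in Vector_TGFb, a difference of -2.21. Its other kept set gave -1.87 and the mean of all its sets was -1.12. PRDM1, a repressor known from plasma cells, differed by -1.39, or -0.88 as the mean of its sets. KLF9, a glucocorticoid-responsive factor, was higher at 2.78 in DLC1_TGFb and 0.77 in Vector_TGFb, a difference of 1.85, and TSC22D3, another such gene, at 1.25. As the mean of their sets KLF9 gave 0.91 and TSC22D3 0.38, both under 2-fold, although a second bright set of KLF9 gave 1.95. Of 22 nuclear receptors, the mineralocorticoid receptor NR3C2 at 1.28 and the orphan receptor NR4A2 at 1.24 were higher, and NR2F1 was lower at -1.04, or -0.99 with the arrays centred on the housekeeping list. The other lists of metabolism were near level, with the lipid synthesis regulator SREBF1 at 1.09 the only one of 23 cholesterol and fatty acid genes past 2-fold, and 2 of 30 glycolysis and hypoxia genes, ANKRD37 at 1.08 and the glucose transporter SLC2A3 at 1.03. As the mean of their sets SREBF1 gave 0.70, ANKRD37 0.51 and SLC2A3 0.84, all under 2-fold. Respiratory chain genes lay below 0 for 20 of 23 members with a median of -0.18 and 0 past 2-fold, and 26 ribosomal protein genes lay between -0.17 and 0.10.

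The pair of arrays without TGF-beta shares no array with the pair described, so it can be set beside it. There, 214 genes were at least 2-fold higher (1.63%) and 307 lower (2.34%) in DLC1 than in Vector. Of the 192 genes higher with TGF-beta, 114 (59.4%) were also at least 2-fold higher without it (0.868% of all kept genes), and the remaining 78 had the same sign under 2-fold. The 114 were 53.3% of the 214. Of the 216 lower with TGF-beta, 148 (68.5%) were also at least 2-fold lower without it (1.13% of all kept genes), which is 48.2% of the 307. Another 64 had the same sign under 2-fold, and 4 did not. No gene passed 2-fold in opposite directions. The higher genes had a median difference of 1.24 with TGF-beta and 1.10 without it, and the lower ones -1.24 and -1.23. For 4 of the lists described above, the group medians in the 2 states are given here, and each had the same sign in both. They were 0.76 with and 0.83 without TGF-beta for the endoplasmic reticulum and 0.81 and 0.76 for ATF4. For mitosis they were -0.67 and -0.91, and for TGF-beta induced targets -0.43 and -0.26. Other lists kept their sign as well, though not all did.

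A few genes differed between labels mainly when TGF-beta was present. The difference of the 2 differences uses all 4 arrays and passed 2-fold upward for 25 kept genes (0.19%) and downward for 23 (0.175%), and it was not tested. SPRY1, an inhibitor of growth factor signalling, read 2.28 in DLC1_TGFb and 0.66 in Vector_TGFb, a difference of 1.79, but 4.26 in DLC1 and 3.61 in Vector, a difference of 0.24. Its other set gave 1.0 and 0.78, so the size depends on the set. MAL2, a protein of apical transport, read 17.08 in DLC1_TGFb and 5.79 in Vector_TGFb, a difference of 1.56, with 29.59 in DLC1 and 20.19 in Vector, a difference of 0.55. CLDN1 differed by 1.34 with TGF-beta and 0.41 without it, and its difference of the differences, 0.93, was under 2-fold.

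Of the genes lower mainly with TGF-beta, FAM83A, an adaptor in growth factor signalling, read 1.85 in DLC1_TGFb and 6.03 in Vector_TGFb, a difference of -1.70, with 1.35 in DLC1 and 1.8 in Vector, a difference of -0.41. Its other 3 sets gave between -1.23 and -2.04 with TGF-beta and between -0.11 and -0.34 without it. SOX5 differed by -2.21 with TGF-beta and -0.93 without it, and ODAPH, a gene of enamel mineralisation, by -2.00 and -0.81. Without TGF-beta, SOX5 read 0.32 in DLC1 and 0.61 in Vector, and ODAPH 0.29 and 0.51 in the same order. Both DLC1 values were under the filter, so the untreated differences of these genes are coarse. SULT1B1, a sulfotransferase, had the most negative difference of the differences among genes past 2-fold, at -1.87, with 3 of its 4 values under the filter. SLITRK6 was higher in both states but less so with TGF-beta, at 7.38 in DLC1_TGFb and 3.36 in Vector_TGFb, a difference of 1.14, and 6.14 in DLC1 and 1.31 in Vector, a difference of 2.23. Its 3 sets gave 1.09 to 1.14 and 2.23 to 2.3.

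**Figure D4:**
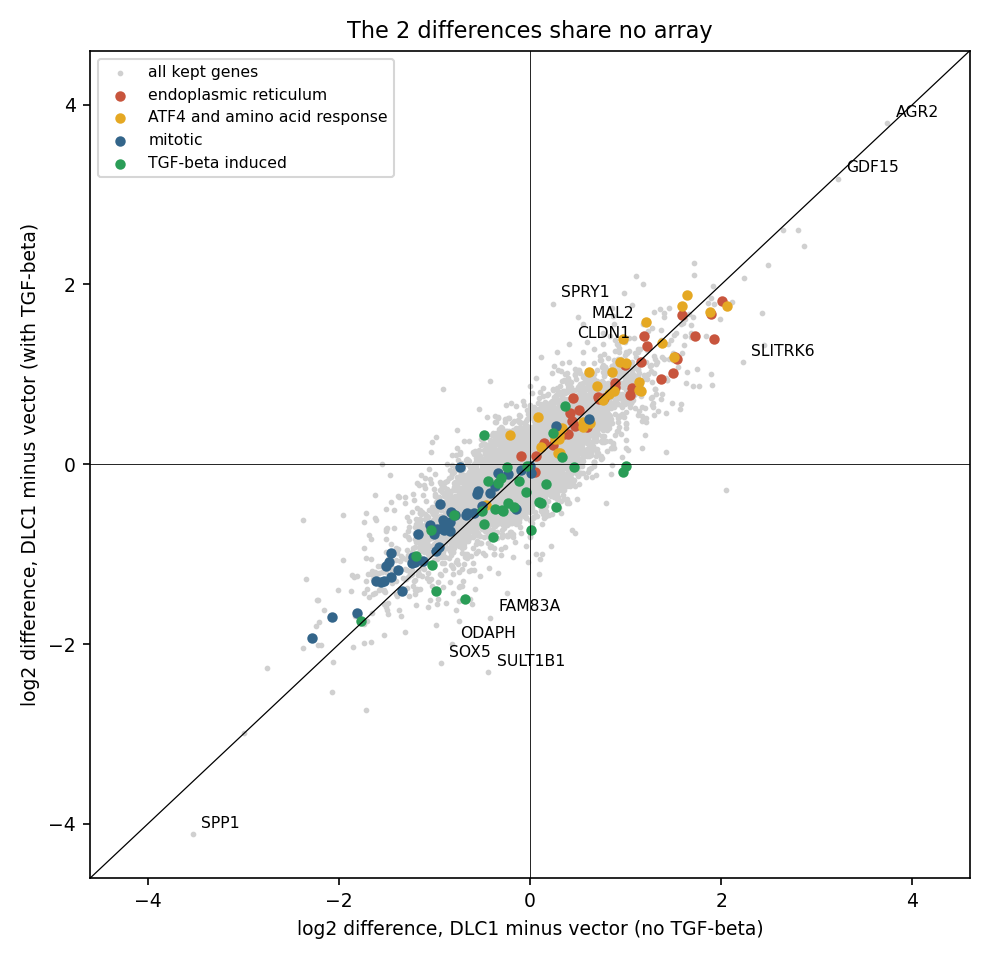
Each point is a kept gene, with the log2 difference DLC1 minus Vector without TGF-beta on the horizontal axis and DLC1_TGFb minus Vector_TGFb on the vertical axis, and the diagonal marks equal differences. Coloured points are members of the endoplasmic reticulum, ATF4, mitotic and TGF-beta induced lists, and SPRY1 lies above and SULT1B1 below the diagonal.

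Several probe sets measure the same transcript on one array and so bear on single genes, without replacing replicates. Of the 192 higher genes, 70 had at least 2 kept sets, and of their 121 other sets 57 (47.1%) passed 2-fold in the same direction, 58 had the same sign under 2-fold and 6 were opposite or 0. Of the 216 lower genes, 90 had at least 2 kept sets, and 86 of 151 other sets (57%) passed, 57 had the same sign and 8 were opposite or 0. All kept sets passed together for 27 higher and 39 lower genes. Over all kept genes, another set lay a median of 0.18 from the set used for its gene. Genes whose every kept set agreed included PDIA4, DNAJB9, CTH and NR4A2 among the higher and FAM83A, TCF4, CALB1, PTPN22, IGFBP3 and TFPI2 among the lower. CALB1, a calcium-binding protein, differed by -2.20 and -2.53 in its 2 sets, and TFPI2, a protease inhibitor, by -1.57 and -1.87. PTPN22, a phosphatase, gave -2.05 and -2.31 in its kept sets and -1.31 as the mean of all its sets.

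**Figure D5:**
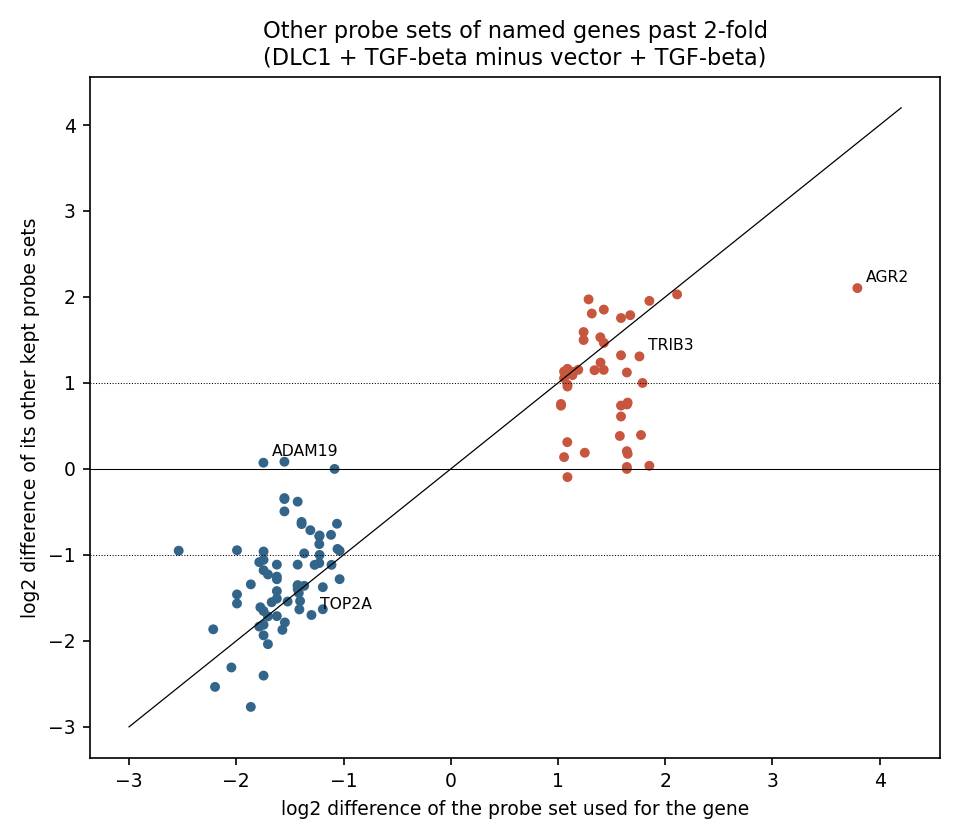
Each point is another kept probe set of a named gene past 2-fold, with the log2 difference of the set used for the gene on the horizontal axis and its own on the vertical axis. Of the 111 points, 71 pass 2-fold in the same direction as the set used and 5 are opposite or 0.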

How the data were processed

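Messenger RNA of SCP2 cells was measured on 4 arrays, 1 for each group, with groups taken from the labels. The authors deposited 1 linear intensity for each of 54675 probe sets and array, between 0.05 and 265.58 and with 2 decimals. RMA is named per the submitters' processing notes, with no version or settings, and usually gives log2 values. Trizol was used to extract the RNA of trypsinised cells, and oligo-dT primed its reverse transcription, per the labels' protocols. The number of arrays limits the precision, and array medians were 0.38 to 0.39. A processing that equalises arrays hides a change shared by most genes.

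The platform annotation names 42898 probe sets, 41097 with 1 symbol and 1801 with several. For 41043 the gene identifier matched the current symbol table, and 11777 are unnamed here. Each gene was read from the brightest of its sets with 1 symbol, by the mean of 4 arrays, and kept if its highest value reached the median of all values, 0.38. log2 was taken with no pseudocount, and called means a difference of at least 2-fold. No statistical test between groups was made. The 58 gene lists are described by counts and medians, with members those kept. Some of these lists are not reported here. Genes were named by rule: DLC1, the 15 highest and 15 lowest with both values at the filter, the 5 highest and 5 lowest without that condition, and the 10 highest and 10 lowest whose kept probe sets all passed 2-fold. They were also the 10 highest and 10 lowest by the difference between states, and up to 8 members of each list with the biggest differences. The members and lists were chosen with earlier results of these data known. The counting of calls was checked on simulated data with known differences, all of them past 2-fold. It did not try known differences near 2-fold. Alternatives were 2 centrings, cyclic loess, the mean of a gene's probe sets, log2(value + 0.1) and 3 other filters.

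Python 3.11.15, numpy 2.4.6, pandas 2.3.3, matplotlib 3.10.9, R 4.3.3 and limma 3.58.1 were used.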

Additional observations from a re-analysis of the deposited data

Results flagged for a closer look

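Probe sets with no gene name here were left out of the gene counts, and some of them differed between the arrays too. Of 3622 such sets bright enough to be kept, 66 (1.82%) were at least 2-fold higher and 49 (1.35%) at least 2-fold lower in DLC1_TGFb than in Vector_TGFb. In the pair without TGF-beta, 39 of the 66 and 18 of the 49 also passed 2-fold in the same direction.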

How the results depend on the processing

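No paired analysis was possible because each group has 1 array. For the same reason no array could be left out. The counts of 192 genes higher and 216 lower stayed within 1.5 times of these values under all 8 alternatives. Centring on the housekeeping list gave 214 higher and 190 lower, so 53% of calls were higher in place of 47.1%, with the median of all genes moved by 0.04. Centring on all kept genes gave 203 and 199, and cyclic loess 190 and 211. The mean of a gene's probe sets gave the fewest, 130 higher and 145 lower of 11846 genes, and log2(value + 0.1) gave 147 and 176. No filter gave 197 and 222, the filter on the higher TGF-beta value 190 and 212, and that on both values 147 and 178. Of 133 named genes past 2-fold, 90 stayed past it with the mean of probe sets and 124 to 132 under the 4 scale alternatives, and none of the 133 changed sign. Over the list medians, 18 of the results under an alternative moved by more than 0.1 and 446 did not. No depth is known for arrays, and values under the filter give only coarse ratios.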

Other observations

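Probe sets that carry several gene symbols, also left out of the gene counts, numbered 1176 above the filter. Of these, 22 (1.87%) were at least 2-fold higher and 6 (0.51%) at least 2-fold lower in DLC1_TGFb than in Vector_TGFb. In the pair without TGF-beta, 20 of the 22 and 5 of the 6 also passed 2-fold in the same direction.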
